A study of Homo sapiens with 21 samples.

Results

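NOTCH1, NOTCH2 and NOTCH3, the Notch ligand JAG1, the Notch target HES1 and 5 genes used as stem cell markers in breast, SOX9, SOX4, KLF4, ALDH1A3 and CD24, were followed through 21 RNA-seq libraries of AU565. They were taken from the deposited table by gene symbol, and all 10 of 10 were among its 16553 genes and passed the filter on low counts. AU565 is a breast cancer cell line with amplified ERBB2, which encodes the receptor HER2, and trastuzumab is an antibody against HER2. The labels give the genotype as WT, and the libraries formed 7 groups of 3 libraries. Primed and treated aggregates came from monolayers given trastuzumab at 20 µg/ml for 24 h, then grown for 96 h in a liquid overlay containing 5% matrigel and given 50 µg/ml for a last 24 h. Treated aggregates had the 96 h in 3D and the last 24 h at 50 µg/ml, without the first exposure. Primed aggregates had the first exposure and the 96 h in 3D, and untreated aggregates the 96 h in 3D alone. Primed monolayers were exposed at 20 µg/ml for 24 h and kept 96 h more as monolayers, acutely exposed monolayers were harvested at the end of the 24 h, and untreated monolayers had no antibody. As the labels read, both groups dosed in 3D were 24 h older than the other aggregates. All groups are 1 cell line, and no label says that replicates came from separate cultures, so p-values measure the spread between these libraries, which can be technical.

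Notch receptors are cut by proteases once a ligand on a neighbouring cell, such as JAG1, pulls on them, and the freed intracellular part joins the DNA-binding protein RBPJ at target genes such as HES1. HES1 is a repressor that also acts on its own promoter. In mammary epithelium Notch signalling is known for its part in luminal progenitor fate. SOX9 marks luminal progenitors, SOX4 is a transcription factor active in progenitors and tumours, and KLF4 is a factor of epithelial differentiation and of reprogramming to pluripotency. ALDH1A3 makes retinoic acid from retinaldehyde and contributes to the aldehyde dehydrogenase activity used to sort stem-like breast cells, while CD24 is a small surface glycoprotein whose low level, with high CD44, defines another stem-like fraction.

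The promoters of HES1 and SOX4 are shown because both genes rose together with NOTCH1 and NOTCH3 in untreated aggregates and in acutely exposed and primed monolayers, each against untreated monolayers, and because both hold the letters TGGGAA, the core that RBPJ binds. They are RefSeq windows on GRCh38.p14 of 300 bases, written 5′ to 3′ in the direction of the gene, both on the plus strand, with TGGGAA in capitals. HES1 lies at chr3:194135898-194136197 and SOX4 at chr6:21593501-21593800.
HES1: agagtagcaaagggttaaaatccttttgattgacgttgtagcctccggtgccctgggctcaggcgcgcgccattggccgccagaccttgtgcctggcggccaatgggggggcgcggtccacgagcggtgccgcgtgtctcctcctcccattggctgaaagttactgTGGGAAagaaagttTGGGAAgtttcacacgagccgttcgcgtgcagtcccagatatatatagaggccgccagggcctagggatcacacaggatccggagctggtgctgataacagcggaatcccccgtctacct
SOX4: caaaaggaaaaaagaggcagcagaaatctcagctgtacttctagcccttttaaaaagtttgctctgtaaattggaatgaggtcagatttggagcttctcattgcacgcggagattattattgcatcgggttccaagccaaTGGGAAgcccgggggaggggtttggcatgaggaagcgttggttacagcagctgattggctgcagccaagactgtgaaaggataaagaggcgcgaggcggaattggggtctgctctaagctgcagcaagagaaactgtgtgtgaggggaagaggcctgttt
In HES1 the letters stand at −84 to −79 and again at −70 to −65, counted from the first transcribed base as 1, both on the gene's own strand. SOX4 has them once, at −110 to −105. CD24 has them once on the opposite strand, at −238 to −233 from the start that its window uses. That window, chr6:106973990-106974289, lies inside the span of the gene given below and not at its outer end. TGGGAA or its reverse complement was in 3 of the 9 members with a promoter in that table and in 24.4% of all 27305 promoters. At least 2 copies, as in HES1, were in 3.84% of them. The longer GTGGGAA, which contains TGGGAA, was in 6.23% of all promoters and in 2 of the 9 members, once each in HES1 and CD24. A match of letters is a description and shows no binding, and SOX9 had no entry. ALDH1A3 rose in the same comparisons as HES1 and SOX4, by a small margin in untreated aggregates, and its promoter lacks TGGGAA. CD24, which holds the letters, fell in untreated aggregates and rose in acutely exposed and primed monolayers. JAG1 lacks them, rose in untreated aggregates and primed monolayers and fell in acutely exposed monolayers. HES1 and SOX4 were picked by their changes and by these letters, so showing them together tests nothing. In primed aggregates and in both groups dosed in 3D, each against untreated aggregates, NOTCH3 rose, and neither HES1 nor SOX4 passed as higher. Whether Notch acts on any of these genes here was not tested.

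On GRCh38.p14 the members are NOTCH1 (Entrez 4851, chromosome 9, 136494433 to 136546048), NOTCH2 (Entrez 4853, chromosome 1, 119911553 to 120069662), NOTCH3 (Entrez 4854, chromosome 19, 15159038 to 15200995), JAG1 (Entrez 182, chromosome 20, 10637684 to 10673999), HES1 (Entrez 3280, chromosome 3, 194136148 to 194138732), SOX9 (Entrez 6662, chromosome 17, 72121020 to 72126416), SOX4 (Entrez 6659, chromosome 6, 21593751 to 21598619), KLF4 (Entrez 9314, chromosome 9, 107484852 to 107489769), ALDH1A3 (Entrez 220, chromosome 15, 100879831 to 100916626) and CD24 (Entrez 100133941, chromosome 6, 106969831 to 106976855). Levels below are counts scaled to a common library total (CPM), as the 3 libraries or as mean ± SD with n = 3, and a change is a log2 fold change with its standard error (SE). The threshold was a Benjamini-Hochberg adjusted p of 0.05 over all genes tested. Counts per member ranged from 66 for SOX9 to 44162 for CD24 in a library, in totals of 15005070 to 26921113. Divided by exon length in GENCODE 29, which may not be the annotation used upstream, the mean level over all libraries was highest for CD24, at 422 CPM per kilobase, followed by HES1 at 31.7. Per kilobase NOTCH3 and NOTCH2 were at 20.9 and 20.4, NOTCH1 at 5.54 and JAG1, the lowest, at 1.15. Some counts are uncertain. NOTCH2 shares sequence with the NOTCH2NL genes, of which NOTCH2NLA, NOTCH2NLB and NOTCH2NLR have counts of their own in the table, CD24 has processed pseudogene copies, and 27.5% of the ALDH1A3 exon bases also lie in an antisense gene, with no strand setting stated for the counting.

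The libraries fall into 2 sets by transcripts of other tissues. The 12 libraries of acutely exposed and untreated monolayers and of primed and untreated aggregates held 7 of 7 melanocyte markers at a summed 16.8 to 114 CPM, against 1.63 to 4.23 in the 9 libraries of primed monolayers and of both groups dosed in 3D. Kidney markers, 9 of 10 of them in the table, summed to 9.8 to 43.4 CPM in the 9 libraries and to 0.111 to 1.18 in the 12. The cardiac myosin MYH7 was above 5 CPM in 6 libraries, acutely exposed monolayers 2 and 3, untreated monolayers 1 and 2 and untreated aggregates 1 and 2. A contrast of groups from different sets mixes the set with the treatment, and they cannot be told apart, because no group has libraries in both. Comparisons of primed monolayers with untreated monolayers, and of aggregates dosed in 3D with those that were not, are of this kind. The 10 luminal epithelial markers summed to 14469 to 19491 CPM in the 12 and 16477 to 23113 in the 9. E-cadherin CDH1, 1 of these 10, was at most 2.99 CPM. The other lists summed, in the 9 and in the 12 libraries, to 14 to 43.1 CPM and 6.9 to 21 CPM for brain (7 of 10 measured), 27.4 to 82.5 CPM and 57.9 to 115 CPM for fibroblasts and smooth muscle (10 of 10), 88.9 to 143 CPM and 99.7 to 311 CPM for striated muscle (9 of 10), 40.4 to 96.4 CPM and 28.8 to 49.1 CPM for endothelium (6 of 10) and 24.9 to 71.9 CPM and 37.7 to 74.1 CPM for leukocytes (4 of 8). Within the 9 libraries, the brain markers summed to 31.5 to 41.5 CPM in primed and treated aggregates, 35.9 to 43.1 in treated aggregates and 14 to 16.1 in primed monolayers. The part of these transcripts in the results on the members was not tested. In bulk RNA, more cells expressing a gene and more RNA per cell cannot be told apart.

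**Figure D1:**
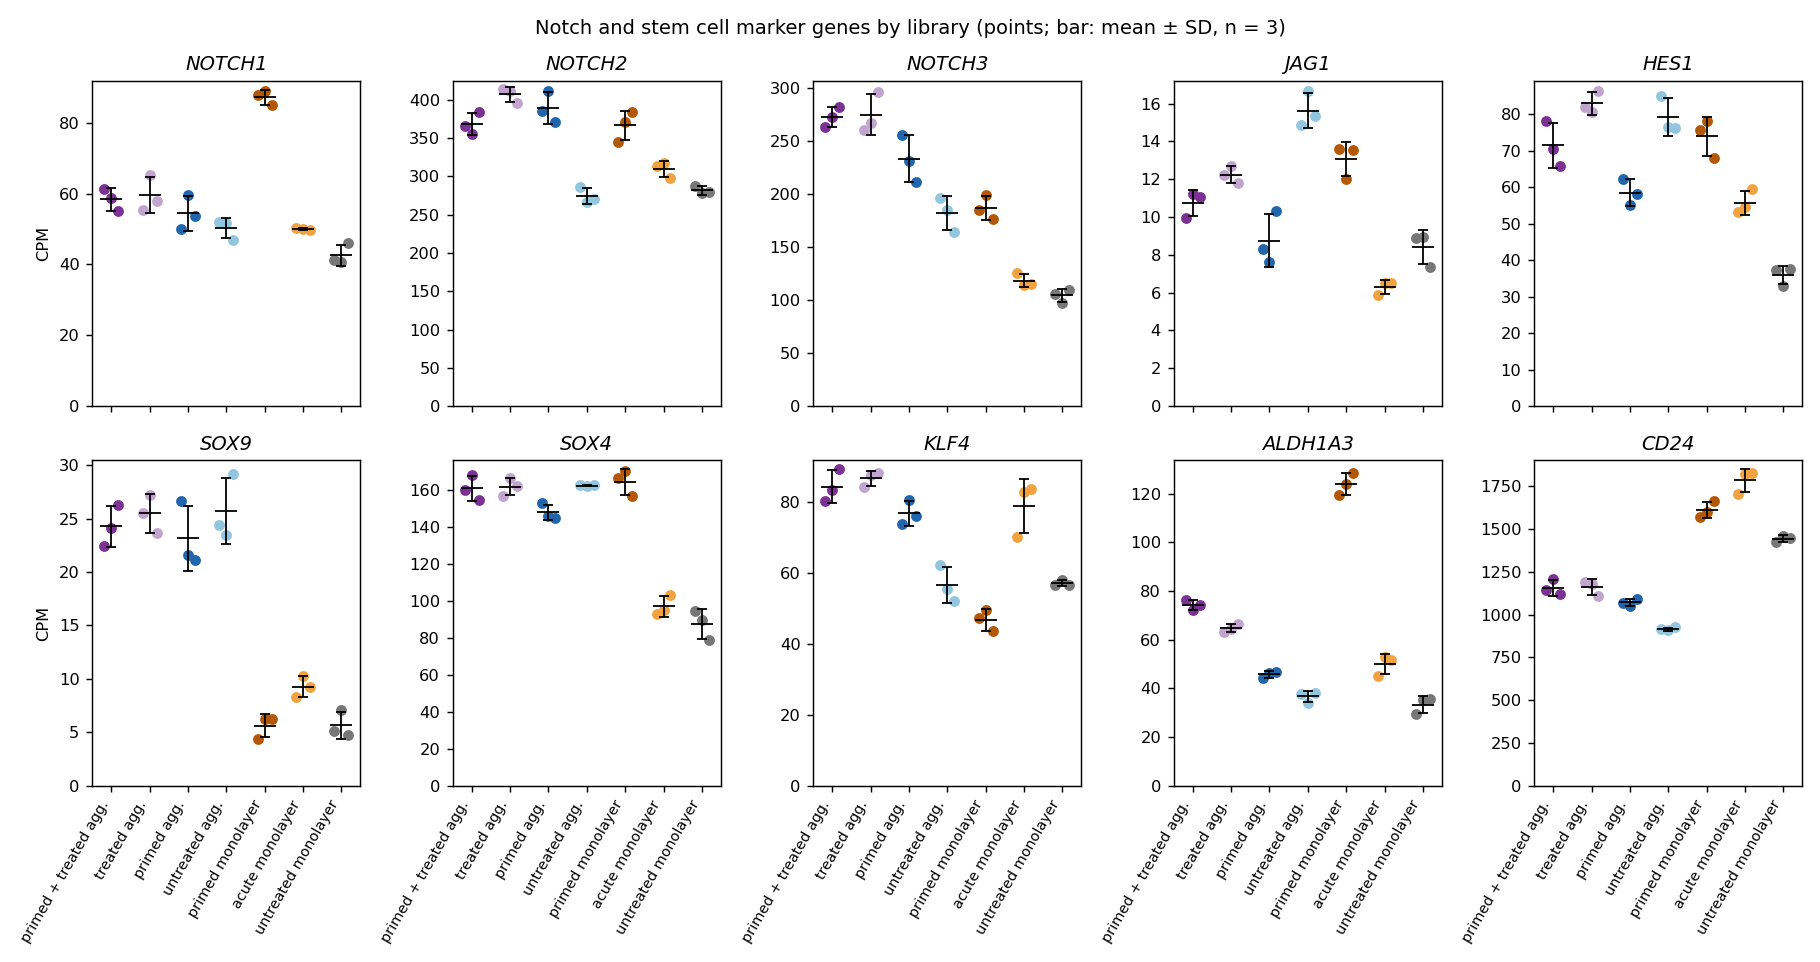
Level of each gene in CPM (y axis, linear from 0) in the 3 libraries of each of the 7 groups (x axis); points are libraries, and bars show mean ± SD, n = 3. SOX9 separates all 12 aggregate libraries from the 9 monolayer libraries, while NOTCH1 and ALDH1A3 are highest in primed monolayers and CD24 is higher in every monolayer library than in any aggregate.

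Growth in 3D without antibody was read from untreated aggregates, harvested after 96 h in the overlay with 5% matrigel, against untreated monolayers, for which the labels give no further culture; form of growth, matrigel and time in culture cannot be told apart. The target HES1 was higher in aggregates, as were 2 of 3 receptors, the ligand JAG1, SOX9, SOX4 and, by a small margin, ALDH1A3, while CD24 was lower. SOX9 had the largest change of the 10. In all, 7 of the 10 rose and 1 fell, and 64.1% of all 15969 genes tested passed, 32.9% higher and 31.1% lower. The median log2 change was 0.57 over the members and 0.01 over all genes. The groups' libraries did not overlap in 7 of 10, against 65.6% of all genes. With so many genes past the threshold, the members' count is not far above the background.

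Among the receptors, NOTCH3 had 196, 186 and 165 CPM in untreated aggregates, against 106, 97.6 and 110.0 in untreated monolayers (log2 0.86, SE 0.0674, edgeR adjusted p = 1.12e-12). NOTCH1 averaged 50.2 ± 2.83 CPM in untreated aggregates and 42.6 ± 2.95 in untreated monolayers (log2 0.29, SE 0.0713, edgeR adjusted p = 0.000597). Libraries of the 2 groups did not overlap for NOTCH3 or NOTCH1. NOTCH2, the receptor with the most counts, averaged 274 ± 10.3 CPM in untreated aggregates and 282 ± 5.43 in untreated monolayers and missed the threshold (log2 0.018, SE 0.0501, edgeR adjusted p = 0.775). JAG1 had 14.9, 16.7 and 15.4 CPM in untreated aggregates, against 8.89, 8.94 and 7.35 in untreated monolayers (log2 0.95, SE 0.111, edgeR adjusted p = 3.08e-09). Every aggregate library was above every monolayer library. HES1 had 85.1, 76.4 and 76.2 CPM in untreated aggregates, against 37.2, 33 and 37.5 in untreated monolayers (log2 1.20, SE 0.0727, edgeR adjusted p = 3.41e-16), again with no overlap.

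Of the stem cell markers, SOX9 had 24.4, 23.4 and 29.2 CPM in untreated aggregates, against 5.11, 7.04 and 4.74 in untreated monolayers (log2 2.23, SE 0.135, edgeR adjusted p = 3.63e-15). All aggregates were over 3 times as high as any monolayer of this comparison. SOX4 averaged 162 ± 0.356 CPM in untreated aggregates and 87.6 ± 8.15 in untreated monolayers (log2 0.95, SE 0.0581, edgeR adjusted p = 4.53e-16). CD24 had 914, 907 and 924 CPM in untreated aggregates, against 1424, 1461 and 1446 in untreated monolayers (log2 −0.60, SE 0.0481, edgeR adjusted p = 4.63e-13). The libraries of the 2 groups did not overlap for either gene. ALDH1A3 averaged 36.6 ± 2.28 CPM in untreated aggregates and 33.3 ± 3.39 in untreated monolayers (log2 0.19, SE 0.0717, edgeR adjusted p = 0.0232), with overlapping libraries. KLF4 averaged 56.6 ± 5.17 CPM in untreated aggregates and 57.2 ± 0.857 in untreated monolayers and missed the threshold (log2 0.039, SE 0.0681, edgeR adjusted p = 0.632). ALDH1A3 did not pass with only the groups compared in the fit (0.19, adjusted p = 0.0654), or without untreated aggregate replicate 1 (0.17, adjusted p = 0.0646), untreated aggregate replicate 3 (0.15, adjusted p = 0.108) or untreated monolayer replicate 1 (0.10, adjusted p = 0.236). Without the 6 MYH7 libraries, which leaves 1 library in each of the 2 groups, neither NOTCH1 (0.10, adjusted p = 0.545) nor ALDH1A3 (0.18, adjusted p = 0.183) passed, and the other 6 calls held. The melanocyte markers summed to 16.8 to 23.3 CPM in untreated aggregates and 50.8 to 114 in untreated monolayers, and their part in these changes was not tested.

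Other genes of the Notch pathway were taken from lists by role. Of 58 genes listed, 48 were tested; NOTCH4, DLL1 and DLL3 are among the 10 not analysed here. In untreated aggregates 24 of 48 rose and 13 fell, with a median log2 change of 0.25, where 64.1% of all genes passed, 32.9% higher and 31.1% lower. Of 8 targets tested, 5 rose and 0 fell. Genes called targets here are those on that list, which includes HES2 and HES6 as relatives of HES1. Whether Notch induces each of them was not tested. The target HEY1, a repressor related to HES1, averaged 22.4 ± 0.725 CPM in untreated aggregates and 4.18 ± 0.36 in untreated monolayers (log2 2.48, SE 0.123, edgeR adjusted p = 1.4e-18). NRARP, a feedback inhibitor of the pathway, averaged 3.3 ± 0.497 CPM in untreated aggregates and 0.897 ± 0.284 in untreated monolayers (log2 1.90, SE 0.256, edgeR adjusted p = 6.64e-08), and the repressor BCL6 changed by 1.31. Of 4 glycosylation enzymes, which modify the receptors, 3 rose. LFNG, which alters the response of receptors to their ligands, averaged 15 ± 1.06 CPM in untreated aggregates and 3.23 ± 0.251 in untreated monolayers (log2 2.27, SE 0.133, edgeR adjusted p = 1.29e-16), while POFUT1 and RFNG changed by 1.25 and 0.94. Among 4 ligands DLL4 rose (1.59), and DLK2 (−1.08) and CNTN1 (−0.49) fell. In ligand trafficking 3 of 5 rose and 1 fell, led by the ubiquitin ligase MIB2 (1.13). Cleavage genes moved both ways, 5 of 9 up and 3 down. Of 7 nuclear complex genes 3 rose and 2 fell, and of 11 inhibitors 4 rose and 5 fell.

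**Figure D2:**
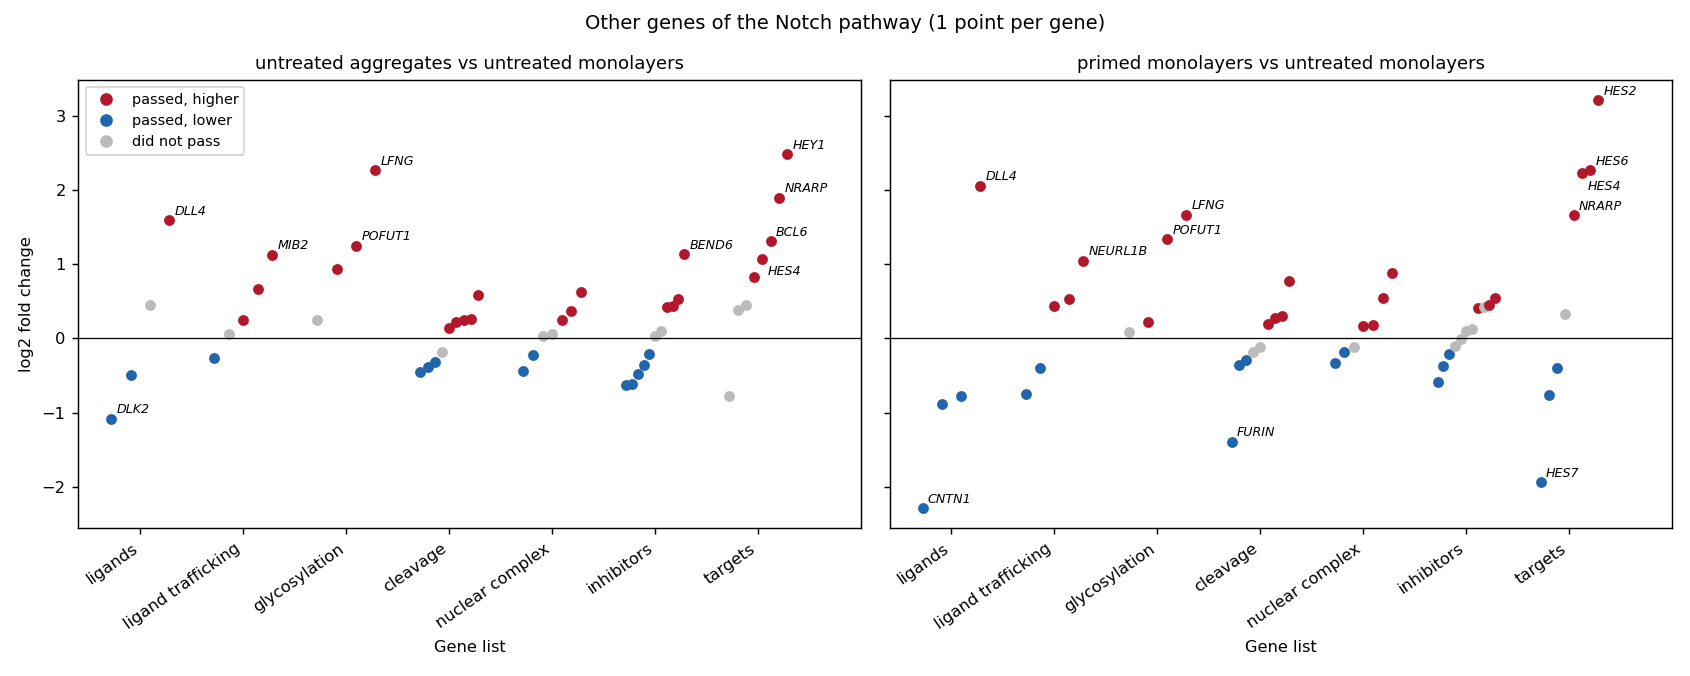
log2 fold change (y axis) of the other tested Notch pathway genes, grouped by list (x axis), in untreated aggregates (left) and primed monolayers (right), each against untreated monolayers; red and blue points passed, grey did not. The 2 panels share their control libraries. LFNG, POFUT1, DLL4 and NRARP are high in both, HEY1 is at 2.48 in the left panel and at −0.41 in the right, and HES2 tops the right panel at 3.21.

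Acutely exposed monolayers were compared with untreated monolayers, for the response to 24 h of trastuzumab. The labels give untreated monolayers as control and name no mock treatment or matched 24 h. If the controls were harvested earlier, antibody and time in culture cannot be told apart. Receptors, HES1 and all 5 stem cell markers rose, and JAG1 fell. That is 9 of 10 higher and 1 lower, where 20.2% of all genes passed, 11.3% higher and 8.91% lower. The median log2 change of the members was 0.31, and that of all genes −0.017. No overlap between the groups' libraries was seen in 9 of 10, against 38.1% of all genes. Changes were small, from 0.18 to 0.74 among those that rose. NOTCH1 had 50.2, 50.1 and 49.8 CPM in acutely exposed monolayers, against 41.1, 40.7 and 46 in untreated monolayers (log2 0.27, SE 0.0706, edgeR adjusted p = 0.00516), and the others were NOTCH2 (0.18) and NOTCH3 (0.21). JAG1 had 5.88, 6.51 and 6.53 CPM in acutely exposed monolayers, against 8.89, 8.94 and 7.35 in untreated monolayers (log2 −0.37, SE 0.12, edgeR adjusted p = 0.0256). All 3 exposed libraries were below all 3 untreated ones. HES1 had 53.2, 54.4 and 59.4 CPM in acutely exposed monolayers, against 37.2, 33 and 37.5 in untreated monolayers (log2 0.67, SE 0.0733, edgeR adjusted p = 9.8e-09).

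SOX9, with few counts, had 8.33, 10.3 and 9.22 CPM in acutely exposed monolayers, against 5.11, 7.04 and 4.74 in untreated monolayers (log2 0.74, SE 0.147, edgeR adjusted p = 0.000363). ALDH1A3 had 45.1, 52.8 and 51.5 CPM in acutely exposed monolayers, against 29.4, 35 and 35.5 in untreated monolayers (log2 0.62, SE 0.0692, edgeR adjusted p = 2.11e-08). For HES1, SOX9 and ALDH1A3 the groups did not overlap. CD24 averaged 1785 ± 68.1 CPM in acutely exposed monolayers, its highest level of the 7 groups, and 1444 ± 18.3 in untreated monolayers (log2 0.34, SE 0.0478, edgeR adjusted p = 1.36e-06). KLF4 (0.50) and SOX4 (0.19) also rose, SOX4 with overlapping libraries. Of the other Notch pathway genes 12 of 48 rose and 1 fell. They included the targets HES2 (1.31), HEY1 (0.75) and BCL6 (0.58), 3 of 8 tested, and LFNG (0.72), while CNTN1 fell (−0.47). MYH7 was present in both groups, and without those libraries, which leaves 1 per group, 3 of 10 members passed, HES1 (0.52, adjusted p = 0.0112), SOX9 (0.83, adjusted p = 0.042) and ALDH1A3 (0.37, adjusted p = 0.0338), all 10 keeping their direction. With 1 library left out, calls were lost for NOTCH2 without acutely exposed monolayer replicate 2 (0.15, adjusted p = 0.0611) or untreated monolayer replicate 2 (0.16, adjusted p = 0.0514), for NOTCH3 without acutely exposed monolayer replicate 1 (0.17, adjusted p = 0.128), untreated monolayer replicate 1 (0.22, adjusted p = 0.0507) or untreated monolayer replicate 2 (0.16, adjusted p = 0.149), for JAG1 without acutely exposed monolayer replicate 1 (−0.33, adjusted p = 0.0923), untreated monolayer replicate 1 (−0.33, adjusted p = 0.0887) or untreated monolayer replicate 2 (−0.32, adjusted p = 0.124) and for SOX4 without acutely exposed monolayer replicate 3 (0.13, adjusted p = 0.178) or untreated monolayer replicate 3 (0.12, adjusted p = 0.167).

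The lasting response was read from primed monolayers, harvested 96 h after the exposure, against untreated monolayers. ALDH1A3 had the largest change, and all 3 receptors, JAG1, HES1, SOX4 and CD24 were higher too, while KLF4 was lower. The counts were 8 of 10 higher and 1 lower, where 65.3% of all genes passed, 33.7% higher and 31.6% lower. The median log2 change was 0.81 for the members and 0.0088 for all genes. The groups' libraries did not overlap in 9 of 10, against 68.2% of all genes. NOTCH1 had 87.8, 88.9 and 84.9 CPM in primed monolayers, against 41.1, 40.7 and 46 in untreated monolayers (log2 1.11, SE 0.0698, edgeR adjusted p = 1.15e-15). NOTCH3 averaged 187 ± 11.4 CPM in primed monolayers and 105 ± 6.37 in untreated monolayers (log2 0.91, SE 0.0676, edgeR adjusted p = 2.82e-13), and NOTCH2 changed by 0.45. All primed libraries lay above all untreated ones for each receptor. JAG1 had 13.6, 12 and 13.5 CPM in primed monolayers, against 8.89, 8.94 and 7.35 in untreated monolayers (log2 0.71, SE 0.114, edgeR adjusted p = 1.75e-06). HES1 averaged 73.9 ± 5.38 CPM in primed monolayers and 35.9 ± 2.53 in untreated monolayers (log2 1.12, SE 0.0735, edgeR adjusted p = 3.44e-15).

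ALDH1A3 had 119.6, 124 and 129 CPM in primed monolayers, against 29.4, 35 and 35.5 in untreated monolayers (log2 1.96, SE 0.0678, edgeR adjusted p = 1.32e-22), a 3.9-fold difference with no overlap. SOX4 averaged 164 ± 6.9 CPM in primed monolayers and 87.6 ± 8.15 in untreated monolayers (log2 0.98, SE 0.0583, edgeR adjusted p = 2.41e-16), and CD24 changed by 0.23. SOX9 had 4.4, 6.26 and 6.21 CPM in primed monolayers, against 5.11, 7.04 and 4.74 in untreated monolayers, and missed the threshold (log2 0.057, SE 0.166, edgeR adjusted p = 0.779). Its libraries overlapped. KLF4 averaged 46.8 ± 3.05 CPM in primed monolayers, its lowest level, and 57.2 ± 0.857 in untreated monolayers (log2 −0.22, SE 0.0699, edgeR adjusted p = 0.00728). Of the other Notch pathway genes 22 of 48 rose and 16 fell. HES2, a relative of HES1, averaged 17.4 ± 0.802 CPM in primed monolayers and 1.96 ± 0.247 in untreated monolayers (log2 3.21, SE 0.191, edgeR adjusted p = 5.39e-16). HES6 (2.27), HES4 (2.23) and NRARP (1.67) rose as well, but HEY1 (−0.41), BCL6 (−0.76) and HES7 (−1.94) fell, so that 4 of 8 targets rose and 3 fell. HES7 was measured less precisely. Its SE in the difference between the aggregate effects after exposure and in untreated cells was 0.81, against 0.20 for HEY1 and 0.10 for BCL6. DLL4 (2.06), LFNG (1.67) and POFUT1 (1.34) were higher, and CNTN1 (−2.29) and the protease FURIN (−1.40), which cuts receptors on their way to the surface, lower. The 2 groups belong to different sets of libraries, so set and priming cannot be told apart here, nor can the 96 h of further culture, which no untreated monolayer had. The endothelial markers summed to 86.1 to 96.4 CPM in primed monolayers and 28.8 to 32.6 in untreated monolayers, mostly CDH5, with PECAM1 at most 1.61 CPM in any library, and their part in the changes was not tested. KLF4 did not pass without primed monolayer replicate 3 (−0.16, adjusted p = 0.0673).

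**Figure D3:**
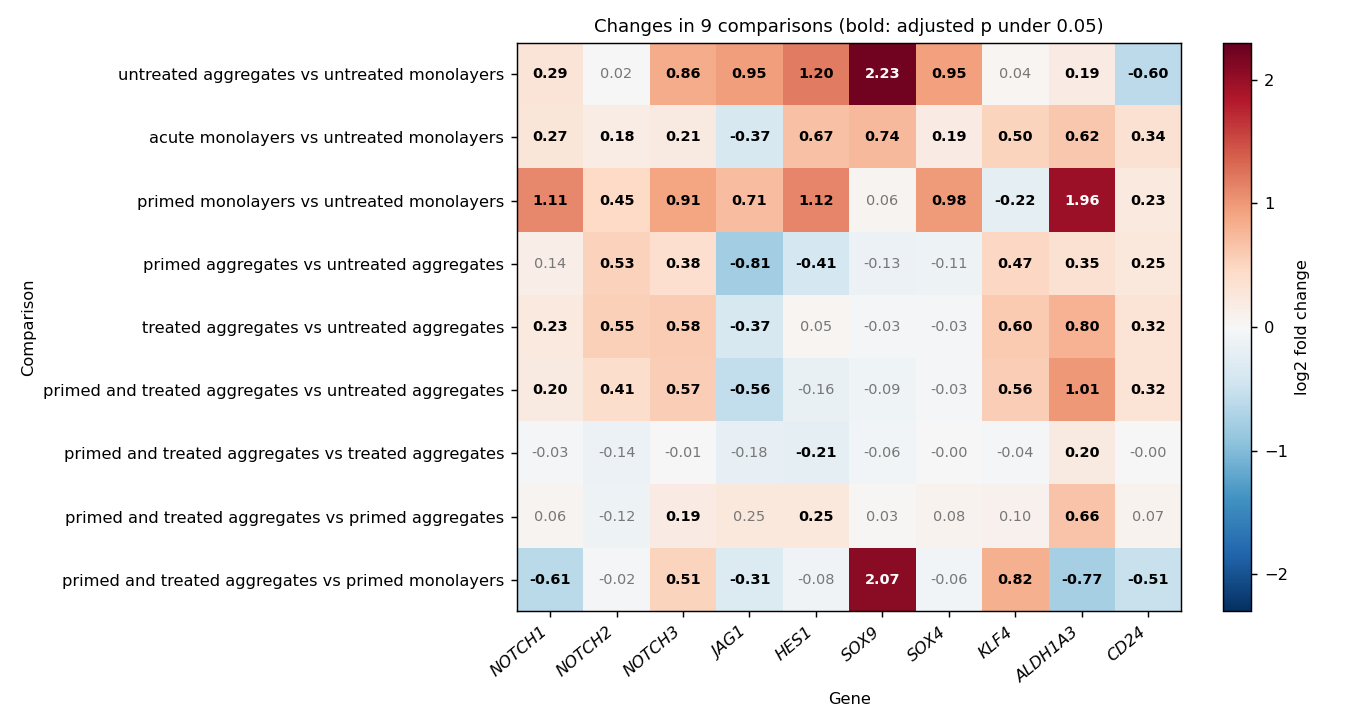
log2 fold change of the 10 genes (x axis) in the 9 pairwise comparisons (y axis), by colour and number, with bold numbers where the adjusted p was under 0.05. SOX9 is at 2.23 and 2.07 in the 2 comparisons of aggregates with monolayers, and ALDH1A3 is above 0 in all but the last row.

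The trace of an earlier exposure in 3D culture was sought by setting primed aggregates against untreated ones. The 2 groups are in the same set of libraries. Melanocyte markers summed to 53.2 to 91.3 CPM in primed aggregates and 16.8 to 23.3 in untreated aggregates. Striated muscle markers summed to 149 to 153 in primed aggregates and 205 to 242 in untreated aggregates. The part of either list was not tested. JAG1 and HES1 were lower in primed aggregates, and NOTCH2, NOTCH3, KLF4, ALDH1A3 and CD24 higher. Of the 10 members 5 rose and 2 fell, where 21.2% of all genes passed, 11.5% higher and 9.66% lower, and the median log2 change was 0.20 for the members and −0.0002 for all genes. No overlap between the groups' libraries was seen in 8 of 10, against 31.4% of all genes. JAG1 had 8.32, 7.62 and 10.3 CPM in primed aggregates, against 14.9, 16.7 and 15.4 in untreated aggregates (log2 −0.81, SE 0.111, edgeR adjusted p = 2e-06). HES1 had 62.2, 55 and 58.2 CPM in primed aggregates, against 85.1, 76.4 and 76.2 in untreated aggregates (log2 −0.41, SE 0.0703, edgeR adjusted p = 4.69e-05). Neither gene's libraries overlapped. NOTCH2 had 385, 411 and 371 CPM in primed aggregates, against 286, 266 and 271 in untreated aggregates (log2 0.53, SE 0.0501, edgeR adjusted p = 1.41e-09). NOTCH3 averaged 233 ± 22.2 CPM in primed aggregates and 182 ± 16.2 in untreated aggregates (log2 0.38, SE 0.0657, edgeR adjusted p = 6.76e-05), and NOTCH1 missed the threshold (log2 0.14, SE 0.0705, edgeR adjusted p = 0.152). The ligand and the target were thus lower where 2 of 3 receptors were higher.

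KLF4 had 73.8, 80.7 and 76.2 CPM in primed aggregates, against 62.2, 55.5 and 52 in untreated aggregates (log2 0.47, SE 0.0674, edgeR adjusted p = 3.82e-06), with no overlap. ALDH1A3 averaged 45.8 ± 1.41 CPM in primed aggregates and 36.6 ± 2.28 in untreated aggregates (log2 0.35, SE 0.0704, edgeR adjusted p = 0.000433). CD24 averaged 1070.5 ± 21.6 CPM in primed aggregates and 915 ± 9 in untreated aggregates (log2 0.25, SE 0.0481, edgeR adjusted p = 0.000219). SOX9 (log2 −0.13, SE 0.116, edgeR adjusted p = 0.488) and SOX4 (log2 −0.11, SE 0.0568, edgeR adjusted p = 0.173) did not pass. Of the other Notch pathway genes 10 of 48 rose and 7 fell. Of 8 targets 0 rose and 3 fell, HES6 (−1.17), HES4 (−0.78) and HEY1 (−0.28). DLL4, which passed among the 4 other ligands, was higher, at 4.51 ± 1.11 CPM in primed aggregates and 1.99 ± 0.0821 in untreated aggregates (log2 1.21, SE 0.217, edgeR adjusted p = 9.75e-05). Of 7 nuclear complex genes 3 rose and 0 fell, the coactivators MAML2 (0.66), MAML3 (0.41) and EP300 (0.34). All 7 calls on members held with each library of the 2 groups left out in turn. Without the 6 MYH7 libraries, which leaves 1 untreated aggregate library, these 7 kept their direction. The library left is also within the 205 to 242 CPM of striated muscle markers in untreated aggregates.

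The effect of priming in aggregates was set against the acute effect in monolayers in a test of the difference itself, all 4 groups being in the same set. Primed aggregates were harvested 96 h after the exposure, and acutely exposed monolayers at its end. Form of growth and time since exposure therefore cannot be told apart in these differences. Of the 10 members 1 differed upward and 3 downward, where 15.1% of all genes passed, 6.85% upward and 8.25% downward. HES1 changed by −0.41 with priming in aggregates and by 0.67 with acute exposure in monolayers (difference log2 −1.09, SE 0.102, edgeR adjusted p = 2.22e-09). SOX9 changed by −0.13 in primed aggregates and by 0.74 in acutely exposed monolayers (difference log2 −0.87, SE 0.188, edgeR adjusted p = 0.00156), and SOX4 by −0.11 in primed aggregates and 0.19 in acutely exposed monolayers (difference log2 −0.30, SE 0.0816, edgeR adjusted p = 0.0105). NOTCH2 differed upward, with 0.53 in primed aggregates and 0.18 in acutely exposed monolayers (difference log2 0.35, SE 0.0706, edgeR adjusted p = 0.000576). JAG1 fell in both, and the difference missed the threshold (log2 −0.44, SE 0.164, edgeR adjusted p = 0.0681). Of the 8 other genes tested from the targets list 5 differed downward and 0 upward, HES6, HES2, HEY1, HES4 and BCL6. Without the 6 MYH7 libraries the differences of NOTCH2 (0.33, adjusted p = 0.157) and SOX4 (−0.40, adjusted p = 0.0833) did not pass, and SOX4 also did not without acutely exposed monolayer replicate 3 (−0.25, adjusted p = 0.0553). Those of JAG1 passed without primed aggregate replicate 3 (−0.58, adjusted p = 0.0177) and of ALDH1A3 (−0.27, adjusted p = 0.0626) without acutely exposed monolayer replicate 1 (−0.33, adjusted p = 0.0206), untreated aggregate replicate 2 (−0.33, adjusted p = 0.0332) or untreated monolayer replicate 3 (−0.32, adjusted p = 0.0311).

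Treated aggregates, and primed and treated aggregates, were each compared with untreated aggregates. ALDH1A3 rose most in both, all 3 receptors, KLF4 and CD24 rose, and JAG1 fell, while SOX9 and SOX4 did not pass. Of the 10 members 6 rose and 1 fell in treated aggregates, where 36.7% of all genes passed, 18.8% higher and 17.9% lower. In primed and treated aggregates 6 rose and 1 fell, where 35.5% passed, 17.6% higher and 17.9% lower. Medians of the members' log2 changes were 0.28 in treated and 0.26 in primed and treated aggregates, against 0.00083 and −0.0021 over all genes. Libraries did not overlap with those of untreated aggregates in 7 members in treated aggregates, as in 46.8% of all genes, and in 7 in primed and treated aggregates, as in 45.5%. The 2 comparisons share their controls, and both cross the sets of libraries, so that the set, the dose and the 24 h of added age cannot be told apart. Brain markers summed to 31.5 to 41.5 CPM in primed and treated aggregates, 35.9 to 43.1 in treated aggregates and 6.9 to 10.3 in untreated aggregates, and their part in the changes was not tested.

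ALDH1A3 had 76.4, 72.3 and 74.2 CPM in primed and treated aggregates (log2 1.01, SE 0.0678, edgeR adjusted p = 1.53e-13) and 63.2, 64.4 and 66.5 in treated aggregates (log2 0.80, SE 0.0684, edgeR adjusted p = 3.09e-11), against 37.8, 34 and 38.1 in untreated aggregates. The 3 groups did not overlap. NOTCH3 averaged 273 ± 9.44 CPM in primed and treated aggregates (log2 0.57, SE 0.0653, edgeR adjusted p = 3.64e-08), 275 ± 19.3 in treated aggregates (log2 0.58, SE 0.0654, edgeR adjusted p = 2.71e-08) and 182 ± 16.2 in untreated aggregates. NOTCH2 averaged 368 ± 14.3 CPM in primed and treated aggregates (log2 0.41, SE 0.0499, edgeR adjusted p = 6.06e-08), 407 ± 9.64 in treated aggregates (log2 0.55, SE 0.0499, edgeR adjusted p = 1.24e-10) and 274 ± 10.3 in untreated aggregates. Both receptors were above every untreated aggregate library in each dosed one. NOTCH1 rose in primed and treated aggregates (log2 0.20, SE 0.0693, edgeR adjusted p = 0.0206) and in treated aggregates (log2 0.23, SE 0.0695, edgeR adjusted p = 0.00929). JAG1 had 9.94, 11.2 and 11 CPM in primed and treated aggregates (log2 −0.56, SE 0.107, edgeR adjusted p = 9.28e-05) and 12.2, 12.7 and 11.8 in treated aggregates (log2 −0.37, SE 0.106, edgeR adjusted p = 0.00545), against 14.9, 16.7 and 15.4 in untreated aggregates. It was lower in every dosed library. HES1 did not pass in primed and treated (log2 −0.16, SE 0.0686, edgeR adjusted p = 0.0593) or treated aggregates (log2 0.047, SE 0.0683, edgeR adjusted p = 0.625).

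KLF4 averaged 84.4 ± 4.69 CPM in primed and treated aggregates (log2 0.56, SE 0.0664, edgeR adjusted p = 3.27e-08), 86.8 ± 2.11 in treated aggregates (log2 0.60, SE 0.0665, edgeR adjusted p = 9.31e-09) and 56.6 ± 5.17 in untreated aggregates. CD24 changed by 0.32 in primed and treated aggregates and by 0.32 in treated aggregates. Among the other Notch pathway genes 14 of 48 rose and 7 fell in primed and treated aggregates, and 18 rose and 6 fell in treated aggregates. In primed and treated aggregates HES2 (2.25) and DLL4 (1.54) rose and HEY1 (−0.85) fell. In treated aggregates HES2 (1.74) and DLL4 (1.99) rose and HEY1 (−0.86) fell. Calls on NOTCH1 were lost in primed and treated aggregates without primed and treated aggregate replicate 1 (0.16, adjusted p = 0.122), primed and treated aggregate replicate 2 (0.19, adjusted p = 0.0604) or untreated aggregate replicate 3 (0.17, adjusted p = 0.097), or without the 6 MYH7 libraries (0.27, adjusted p = 0.0519), and in treated aggregates without treated aggregate replicate 2 (0.15, adjusted p = 0.117) or untreated aggregate replicate 3 (0.19, adjusted p = 0.0556). JAG1 in treated aggregates did not pass without the MYH7 libraries (−0.38, adjusted p = 0.0699), and HES1 in primed and treated aggregates passed as lower without primed and treated aggregate replicate 1 (−0.24, adjusted p = 0.0121) or untreated aggregate replicate 2 (−0.20, adjusted p = 0.0493).

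Primed and treated aggregates were compared with treated aggregates for the effect of priming in cells that were dosed again, within 1 set of libraries. Fibroblast and smooth muscle markers summed to 39.9 to 59.6 CPM in primed and treated aggregates and 72.6 to 82.5 in treated aggregates, and their part was not tested. Of the 10 members ALDH1A3 rose and HES1 fell, where 7.98% of all genes passed, 3.18% higher and 4.8% lower. The median log2 change was −0.03 over the members and 0.00094 over all genes. The groups' libraries did not overlap in 4 of 10, against 28.7% of all genes. ALDH1A3 had 76.4, 72.3 and 74.2 CPM in primed and treated aggregates, against 63.2, 64.4 and 66.5 in treated aggregates (log2 0.20, SE 0.0638, edgeR adjusted p = 0.0417). HES1 had 78, 70.5 and 65.6 CPM in primed and treated aggregates, against 81.9, 80.5 and 86.4 in treated aggregates (log2 −0.21, SE 0.0677, edgeR adjusted p = 0.0463). In each gene the 3 libraries of one group lay beyond those of the other. Both calls were near the threshold. ALDH1A3 did not pass with RLE factors (0.20, adjusted p = 0.0529) or upper-quartile factors (0.19, adjusted p = 0.0528), or without primed and treated aggregate replicate 1 (0.18, adjusted p = 0.155), primed and treated aggregate replicate 2 (0.23, adjusted p = 0.0746), primed and treated aggregate replicate 3 (0.21, adjusted p = 0.0765), treated aggregate replicate 1 (0.19, adjusted p = 0.143), treated aggregate replicate 2 (0.21, adjusted p = 0.101) or treated aggregate replicate 3 (0.22, adjusted p = 0.0797). HES1 did not pass without a filter on low counts (−0.21, adjusted p = 0.0509), or without primed and treated aggregate replicate 2 (−0.20, adjusted p = 0.163), primed and treated aggregate replicate 3 (−0.15, adjusted p = 0.261), treated aggregate replicate 1 (−0.22, adjusted p = 0.109), treated aggregate replicate 2 (−0.23, adjusted p = 0.0794) or treated aggregate replicate 3 (−0.19, adjusted p = 0.167). Of the other Notch pathway genes 2 of 48 rose, HES2 (0.51) and BCL6 (0.22), and 5 fell, among them FURIN (−0.74).

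The effect of priming in treated aggregates was then set against its effect in aggregates not otherwise treated, in a test of the difference. Each of the 2 effects lies within 1 set. Of the 10 members 1 differed upward and 4 downward, where 12.5% of all genes passed, 5.05% upward and 7.42% downward. NOTCH2 changed by −0.14 in treated and by 0.53 in otherwise untreated aggregates (difference log2 −0.67, SE 0.0703, edgeR adjusted p = 3.82e-08). NOTCH3 changed by −0.0069 in treated and 0.38 in otherwise untreated aggregates (difference log2 −0.39, SE 0.0919, edgeR adjusted p = 0.00387), and KLF4 by −0.035 in treated and 0.47 in otherwise untreated aggregates (difference log2 −0.50, SE 0.0929, edgeR adjusted p = 0.000246). JAG1 was at −0.18 in treated and −0.81 in otherwise untreated aggregates (difference log2 0.62, SE 0.154, edgeR adjusted p = 0.00557). CD24 was at −0.00014 in treated and 0.25 in otherwise untreated aggregates (difference log2 −0.25, SE 0.0678, edgeR adjusted p = 0.0111). All 5 genes changed less with priming when both groups had been dosed in 3D. HES1 fell in both, and the difference missed the threshold (log2 0.20, SE 0.0976, edgeR adjusted p = 0.189). CD24 did not pass without treated aggregate replicate 1 (−0.22, adjusted p = 0.0501), or without the 6 MYH7 libraries (−0.21, adjusted p = 0.124).

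**Figure D4:**
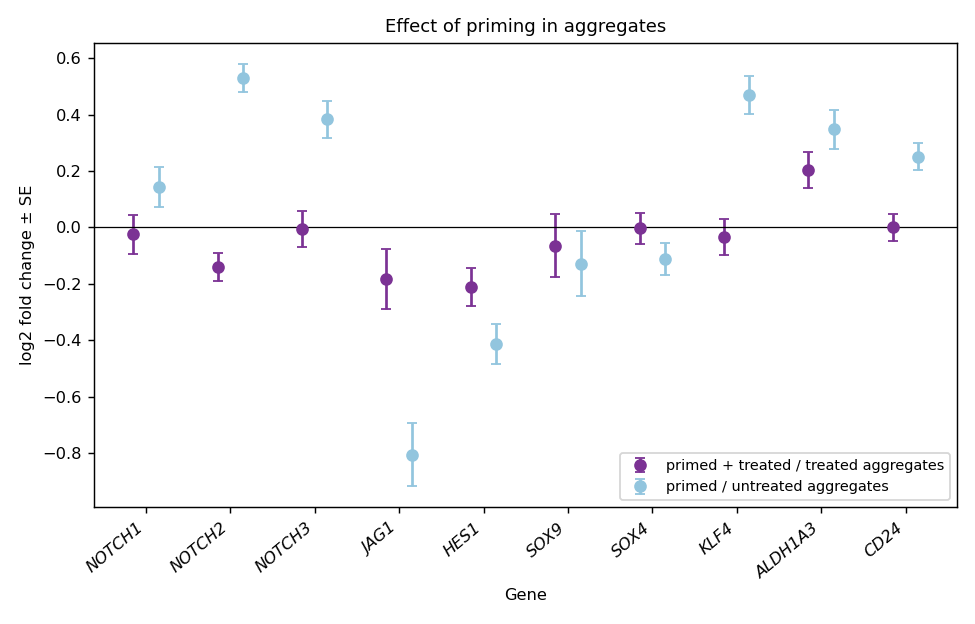
log2 fold change ± SE (y axis) of each gene (x axis) for primed and treated against treated aggregates (purple) and for primed against untreated aggregates (light blue); the 2 effects share no library. NOTCH2, NOTCH3, KLF4 and CD24 lie above 0 in the second and near or below 0 in the first, and JAG1 is at −0.18 in the first and −0.81 in the second.

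For the second dose in primed cells, primed and treated aggregates were compared with primed aggregates, which crosses the sets and adds 24 h of age. Brain markers were at 31.5 to 41.5 CPM in primed and treated aggregates and 10.1 to 15.4 in primed aggregates, and their part was not tested. ALDH1A3, HES1 and NOTCH3 rose, 3 of 10 members, and 0 fell, where 29.8% of all genes passed, 14.9% higher and 14.8% lower. No overlap between the groups' libraries was seen in 5 of 10, against 41.7% of all genes. Both shares are near the background. Median log2 changes were 0.089 for the members and −0.0022 for all genes. ALDH1A3 had 76.4, 72.3 and 74.2 CPM in primed and treated aggregates, against 44.2, 46.3 and 46.8 in primed aggregates (log2 0.66, SE 0.0661, edgeR adjusted p = 2.66e-09). HES1 had 78, 70.5 and 65.6 CPM in primed and treated aggregates, against 62.2, 55 and 58.2 in primed aggregates (log2 0.25, SE 0.0696, edgeR adjusted p = 0.00637). Neither overlapped. NOTCH3 averaged 273 ± 9.44 CPM in primed and treated aggregates and 233 ± 22.2 in primed aggregates (log2 0.19, SE 0.0647, edgeR adjusted p = 0.0281). Of 8 other targets 5 rose, led by HES2 (1.99), HES4 (0.88) and HES6 (0.84), and HEY1 fell (−0.57). NOTCH3 did not pass without primed aggregate replicate 2 (0.18, adjusted p = 0.0751), primed aggregate replicate 3 (0.12, adjusted p = 0.209), primed and treated aggregate replicate 2 (0.19, adjusted p = 0.0641) or primed and treated aggregate replicate 3 (0.16, adjusted p = 0.0991), and HES1 not without primed aggregate replicate 2 (0.21, adjusted p = 0.0508) or primed and treated aggregate replicate 1 (0.18, adjusted p = 0.0827). Leaving out primed aggregate replicate 3 (−0.15, adjusted p = 0.0358) or primed and treated aggregate replicate 3 (−0.15, adjusted p = 0.0498) made NOTCH2 pass as lower, and leaving out primed aggregate replicate 3 (0.39, adjusted p = 0.0185) made JAG1 pass as higher.

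Primed and treated aggregates were also compared with primed monolayers, the other contrast of 3D with 2D growth within 1 set. Here the aggregates also had the second dose and 24 h more. Endothelial markers summed to 40.9 to 45.9 CPM in primed and treated aggregates and 86.1 to 96.4 in primed monolayers. In the same order, fibroblast and smooth muscle markers summed to 39.9 to 59.6 and 27.4 to 29.9 CPM. Striated muscle markers summed to 133 to 143 and 88.9 to 90 CPM, and leukocyte markers to 57.9 to 71.9 and 24.9 to 30.2. The part of these lists was not tested. SOX9, KLF4 and NOTCH3 were higher in the aggregates, and ALDH1A3, NOTCH1, CD24 and JAG1 lower. These are 3 of 10 higher and 4 lower, where 63.9% of all genes passed, 31.9% higher and 32.1% lower. The groups' libraries did not overlap in 7 of 10, against 68.2% of all genes. Here too the shares are near the background. Median log2 changes were −0.073 for the members and 0.019 for all genes. SOX9 had 22.5, 24.1 and 26.3 CPM in primed and treated aggregates, against 4.4, 6.26 and 6.21 in primed monolayers (log2 2.07, SE 0.14, edgeR adjusted p = 4.12e-14). KLF4 had 80.2, 83.6 and 89.5 CPM in primed and treated aggregates, against 47.3, 49.6 and 43.6 in primed monolayers (log2 0.82, SE 0.0682, edgeR adjusted p = 1.09e-12). NOTCH3 averaged 273 ± 9.44 CPM in primed and treated aggregates and 187 ± 11.4 in primed monolayers (log2 0.51, SE 0.0655, edgeR adjusted p = 3.75e-08). All 3 genes were without overlap.

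NOTCH1 had 61.4, 58.7 and 55 CPM in primed and treated aggregates, against 87.8, 88.9 and 84.9 in primed monolayers (log2 −0.61, SE 0.0676, edgeR adjusted p = 9.9e-10). ALDH1A3 averaged 74.3 ± 2.08 CPM in primed and treated aggregates and 124 ± 4.53 in primed monolayers (log2 −0.77, SE 0.0632, edgeR adjusted p = 7.25e-13). CD24 averaged 1157 ± 47.5 CPM in primed and treated aggregates and 1611 ± 49.4 in primed monolayers (log2 −0.51, SE 0.048, edgeR adjusted p = 2.31e-11). These 3 were lower in every aggregate library. NOTCH2, HES1 and SOX4 did not pass, at −0.024, −0.082 and −0.064 (edgeR adjusted p = 0.689, 0.308 and 0.331). JAG1 (log2 −0.31, SE 0.11, edgeR adjusted p = 0.0133) did not pass without primed monolayer replicate 1 (−0.28, adjusted p = 0.0549) or primed and treated aggregate replicate 1 (−0.27, adjusted p = 0.0601), or with upper-quartile scaling (−0.23, adjusted p = 0.0677). Of the other Notch pathway genes 21 of 48 rose and 13 fell. Targets split, with BCL6 (2.63), HEY1 (2.04) and HES7 (1.69) higher and HES6 (−1.78), HES4 (−1.05) and HES2 (−0.59) lower. The ligand DLL4 (1.07) and LFNG (0.85) rose as they did in untreated aggregates against untreated monolayers (1.59 and 2.27).

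Set against each other, the aggregate effect after exposure and that in untreated cells differed in 7 of 10 members, 1 upward and 6 downward, where 54% of all genes passed, 25.1% upward and 28.8% downward. Primed monolayers had 96 h of further culture and untreated monolayers none. Time in culture, the second dose and the set of libraries therefore cannot be told apart in these differences. The largest differences were in HES1, which changed by −0.082 after exposure and by 1.20 in untreated cells (difference log2 −1.28, SE 0.101, edgeR adjusted p = 7.98e-13), and in JAG1, with −0.31 after exposure and 0.95 in untreated cells (difference log2 −1.27, SE 0.156, edgeR adjusted p = 1.96e-08). SOX4 changed by −0.064 after exposure and 0.95 in untreated cells (difference log2 −1.01, SE 0.081, edgeR adjusted p = 1.3e-12). ALDH1A3 changed by −0.77 after exposure and 0.19 in untreated cells (difference log2 −0.96, SE 0.0956, edgeR adjusted p = 2.12e-10), and NOTCH1 by −0.61 after exposure and 0.29 in untreated cells (difference log2 −0.90, SE 0.0983, edgeR adjusted p = 1.47e-09). These 5 genes were higher in untreated aggregates, and after exposure 3 of them were lower in the aggregates and 2 did not pass. KLF4 differed the other way, with 0.82 after exposure and 0.039 in untreated cells (difference log2 0.78, SE 0.0964, edgeR adjusted p = 2.02e-08). NOTCH3 rose in both, by 0.51 after exposure and 0.86 in untreated cells (difference log2 −0.34, SE 0.0937, edgeR adjusted p = 0.00252). For SOX9 (log2 −0.15, SE 0.201, edgeR adjusted p = 0.55), CD24 (log2 0.092, SE 0.0677, edgeR adjusted p = 0.256) and NOTCH2 (log2 −0.042, SE 0.0706, edgeR adjusted p = 0.64) the difference did not pass. Without the 6 MYH7 libraries that of NOTCH3 did not pass (−0.14, adjusted p = 0.405).

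**Figure D5:**
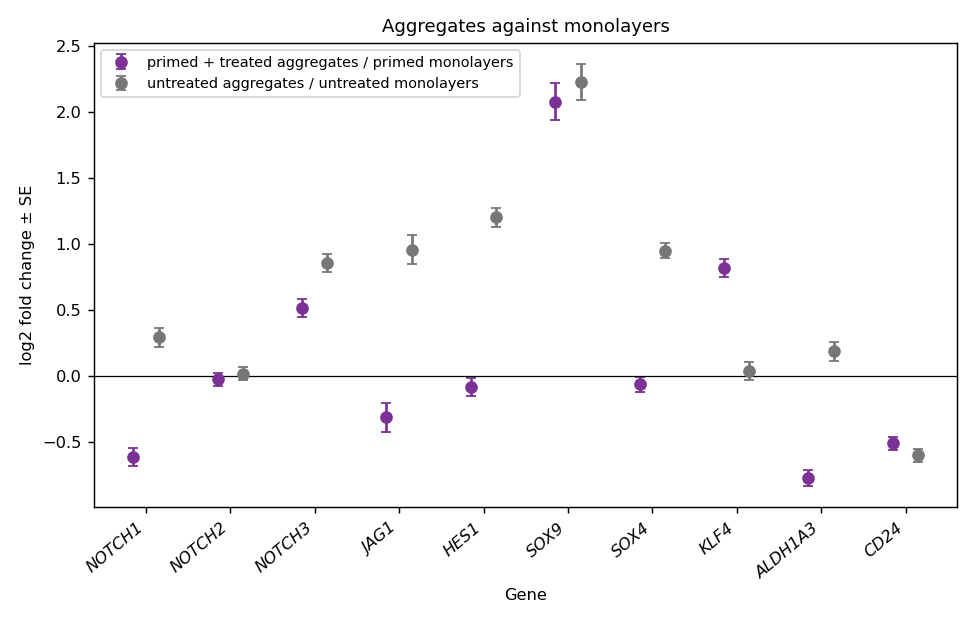
log2 fold change ± SE (y axis) of each gene (x axis) for primed and treated aggregates against primed monolayers (purple) and for untreated aggregates against untreated monolayers (grey); the 2 effects share no library. SOX9 is near 2 and CD24 below 0 in both, while HES1 and SOX4 are close to 1 in the second and slightly below 0 in the first.

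Across the 7 groups the members ordered differently. Each order below runs from the highest mean CPM to the lowest, and neighbours whose 3 libraries overlap are named as not separated. NOTCH1 ran through primed monolayers (87.2), treated aggregates (59.6), primed and treated aggregates (58.4), primed aggregates (54.5), untreated aggregates (50.2), acutely exposed monolayers (50.1) and untreated monolayers (42.6), and the 4 aggregate groups overlapped from one to the next, as did untreated aggregates and acutely exposed monolayers. Primed monolayers and untreated monolayers stood apart at the 2 ends. For NOTCH2 the order was treated aggregates (407), primed aggregates (389), primed and treated aggregates (368), primed monolayers (366), acutely exposed monolayers (309.9), untreated monolayers (282) and untreated aggregates (274), with the first 4 groups overlapping in turn and the last 2 as well. NOTCH3 went through treated aggregates (275), primed and treated aggregates (273), primed aggregates (233), primed monolayers (187), untreated aggregates (182), acutely exposed monolayers (118) and untreated monolayers (105), where treated overlapped with primed and treated aggregates and primed monolayers with untreated aggregates. JAG1 ran through untreated aggregates (15.6), primed monolayers (13.1), treated aggregates (12.2), primed and treated aggregates (10.7), primed aggregates (8.76), untreated monolayers (8.39) and acutely exposed monolayers (6.31). There the untreated aggregates and the acutely exposed monolayers stood apart, and neighbours overlapped from primed monolayers to treated aggregates and from primed and treated aggregates down to untreated monolayers. The order for HES1 was treated aggregates (82.9), untreated aggregates (79.2), primed monolayers (73.9), primed and treated aggregates (71.4), primed aggregates (58.5), acutely exposed monolayers (55.7) and untreated monolayers (35.9). Its first 4 groups overlapped in turn, as did primed aggregates and acutely exposed monolayers, and untreated monolayers were separated below.

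SOX9 was ordered as untreated aggregates (25.7), treated aggregates (25.5), primed and treated aggregates (24.3), primed aggregates (23.1), acutely exposed monolayers (9.27), untreated monolayers (5.63) and primed monolayers (5.62). Its 4 aggregate groups overlapped and lay above all monolayers, of which the acutely exposed ones were separate. SOX4 ran through primed monolayers (164), untreated aggregates (162), treated aggregates (162), primed and treated aggregates (161), primed aggregates (148), acutely exposed monolayers (97) and untreated monolayers (87.6), with the first 4 groups overlapping, primed aggregates apart, and acutely exposed and untreated monolayers overlapping. For KLF4 the order was treated aggregates (86.8), primed and treated aggregates (84.4), acutely exposed monolayers (78.8), primed aggregates (76.9), untreated monolayers (57.2), untreated aggregates (56.6) and primed monolayers (46.8). Here the first 4 groups overlapped in turn, as did untreated monolayers and aggregates. ALDH1A3 went through primed monolayers (124), primed and treated aggregates (74.3), treated aggregates (64.7), acutely exposed monolayers (49.8), primed aggregates (45.8), untreated aggregates (36.6) and untreated monolayers (33.3), where neighbours overlapped between acutely exposed monolayers and primed aggregates and between the 2 untreated groups. CD24 ran through acutely exposed monolayers (1785), primed monolayers (1611), untreated monolayers (1444), treated aggregates (1159.9), primed and treated aggregates (1157), primed aggregates (1070.5) and untreated aggregates (915), and its only overlapping neighbours were treated with primed and treated aggregates. The ratio of the highest to the lowest group mean was 4.57 for SOX9, 3.73 for ALDH1A3 and 2.63 for NOTCH3, and smallest of the 10, 1.48, for NOTCH2.

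Likeness of pattern is given as Pearson's r of log2 CPM over all 21 libraries, among 9428 other genes with a mean of at least 10 CPM, as a description. The points share groups, libraries and sets, so high values are common. Closest to NOTCH1 were CX3CL1, ZNF142 and IL4R (r = 0.975, 0.969 and 0.969), to NOTCH2 B3GNT3, SPTBN1 and SORL1 (r = 0.947, 0.943 and 0.929) and to NOTCH3 FARP1, S100A13 and SLC25A23 (r = 0.976, 0.975 and 0.975). Within the 12 libraries of the first set these 3 genes of NOTCH3 had r of 0.968 to 0.986, and within the other 9 0.879 to 0.962. JAG1 was closest to PGD, PPIL1 and ODC1 (r = 0.948, 0.937 and 0.925) and HES1 to C8orf82, IER5 and IRX2-DT (r = 0.964, 0.959 and 0.952). For JAG1 the values within the 12 were 0.956 to 0.968 and within the 9 0.378 to 0.667, so that the likeness is weaker there. Lower values within the 9 were also found for the genes nearest to NOTCH2, at 0.357 to 0.8 against 0.919 to 0.934 within the 12, and to HES1, at 0.554 to 0.738 against 0.961 to 0.98. SOX9 was closest to DNAJC12, SLC6A6 and PTGS1 (r = 0.977, 0.975 and 0.972), SOX4 to PABPC4, ZNF787 and DYNLL1 (r = 0.98, 0.98 and 0.98) and KLF4 to ZNF750, KIF13B and SPATA13 (r = 0.958, 0.955 and 0.946). For SOX4 they were 0.546 to 0.717 within the 9 and 0.98 to 0.986 within the 12, while SOX9's 3 genes had r of 0.964 to 0.977 within the 12 and 0.977 to 0.992 within the 9. The genes closest to ALDH1A3 were CAST, FXYD5 and PLEKHA6 (r = 0.976, 0.974 and 0.96), and to CD24 SLC9A8, JPT2 and NDST1 (r = 0.973, 0.966 and 0.957).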

How the data were processed

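RNA of AU565 cells was sequenced in 21 libraries. The deposited table holds whole-number read counts per gene made by the authors with featureCounts, per the submitters' processing notes, which also name limma and hg38; the aligner, annotation, strand setting and versions are not given in the sources used here. Total counts per library ran from 15005070 to 26921113. The primed aggregate columns were matched to their samples by the words of the titles and by elimination. Of 16553 genes, 174 had no symbol, which stayed in the tests. After filterByExpr had removed 584 genes, 15969 were fitted in 1 edgeR quasi-likelihood model (edgeR 4.0.16, R 4.3.3; TMM factors, robust, 1 mean per group, all 21 libraries, 14 residual degrees of freedom, biological coefficient of variation 5.98%). Tests were two-sided with Benjamini-Hochberg adjustment over all genes fitted. The 9 pairwise contrasts and 3 differences between contrasts came from that model. CPM is the count divided by the library's total count, without the TMM factor. Replicates of a group differed by more than counting noise (chi-square per degree of freedom 2.4 to 10.7), so none were merged, which does not show that they came from separate cultures.

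The members and gene lists were chosen with earlier results of these data known. From each list at most 3 genes were named by rule, those with the largest change among genes that passed, reached a mean of 1 CPM in a group and had no overlap between groups; further pathway genes named beside them were chosen after their values were seen. In simulated data every gene had its mean over all libraries and the same spread, and only acutely exposed monolayers held changed genes. Compared with untreated monolayers, on 15496 genes, 88% of the 100 genes given a 1.5-fold change and 98% of the 100 given a 2-fold change were called. Of the calls, 4.62% were false. Smaller changes and the sets of libraries were not simulated, so these rates need not hold for the calls above. Alternatives were other scalings (RLE, upper quartile), no filter, DESeq2 1.42.0, limma-voom 3.58.1, a replicate block, only the groups compared, each library left out and the 6 MYH7 libraries left out.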

Additional observations from a re-analysis of the deposited data

Results flagged for a closer look

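The response to priming differed between aggregates dosed in 3D and aggregates not dosed, by a test of the difference itself in the edgeR model, in 5 of the 10 genes, against 12.5% of all genes. The log2 difference, dosed minus not dosed, was −0.67 for the receptor NOTCH2, −0.39 for NOTCH3, 0.62 for the ligand JAG1, −0.50 for KLF4 and −0.25 for CD24. The 2 responses come from different sets of libraries by their tissue transcripts, so set and dose cannot be told apart in these differences, although each response lies within 1 set.

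The change with growth as aggregates differed between exposed and untreated cells in 7 genes, by the same kind of test. The log2 difference, exposed minus untreated, was −1.28 for HES1, −1.27 for JAG1, −1.01 for SOX4, −0.96 for ALDH1A3, −0.90 for NOTCH1 and −0.34 for NOTCH3. KLF4 had the one positive value, 0.78. Among all genes 54% passed this test, and the exposed aggregates also had the second dose that the primed monolayers lacked, which cannot be told apart from aggregation. These 2 effects also come from different sets of libraries. Primed monolayers had 96 h of further culture and untreated monolayers had none, so time in culture cannot be told apart either. A difference can lie in the monolayers as well as in the aggregates. SOX4 averaged 162 CPM in untreated and 161 in primed and treated aggregates, and 87.6 in untreated and 164 in primed monolayers. For KLF4 these means were 56.6 and 84.4 in aggregates, and 57.2 and 46.8 in monolayers.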

How the results depend on the processing

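No member reversed a call under any alternative. Of 120 member results (10 genes in 12 contrasts), 119 kept their side of the threshold with RLE factors, 116 with upper-quartile factors, 119 without a filter, 118 with DESeq2, all 120 with limma-voom and 118 with only the groups compared. Without the 6 MYH7 libraries 15 of the 90 member results in the contrasts this touches lost their call, which leaves 1 library in some groups, assumed to vary like the others. In acutely exposed against untreated monolayers 3 members and 727 of all genes then passed, against 10 and 3222, and in priming in aggregates against acute exposure in monolayers 2 members and 268 genes, against 4 and 2411. In primed against untreated aggregates 2176 genes passed without those libraries and 2177 with only the groups compared, against 3379. In primed and treated against treated aggregates 1 member passed with RLE factors, upper-quartile factors or no filter, against 2, and 2050 genes with only the groups compared, against 1274. Leaving out 1 library gave 0 to 1 members and 695 to 1138 genes there, and 1 to 4 members in primed and treated against primed aggregates, against 3. Calls gained were HES1 in primed and treated against untreated aggregates (−0.18, adjusted p = 0.0367) and CD24 in the difference of aggregate effects (0.16, adjusted p = 0.042) with upper-quartile factors, NOTCH2 in primed and treated against treated aggregates with DESeq2 (−0.15, adjusted p = 0.0271) or only the groups compared (−0.14, adjusted p = 0.0206), and ALDH1A3 in priming against acute exposure with DESeq2 (−0.28, adjusted p = 0.0454). Fits of only the groups compared, or without libraries, hold fewer samples; otherwise the cause was not tested. Replicate numbers showed no steady pairing: same-numbered libraries of 63 pairs deviated with r from −0.314 to 0.369, and 19 correlated best with their own number. With 3 libraries per group this check cannot exclude pairing. Primed monolayers and primed and treated aggregates had r = 0.369, −0.0179 and 0.246. In untreated aggregates against untreated monolayers all 3 same-numbered pairs were above 0.1 (r = 0.124, 0.246 and 0.317), though replicate 2 did not correlate best with its own number. The replicate block changed no member's call there. With the replicate block all 120 member results kept their side, 8 of 10 passing in untreated aggregates against untreated monolayers and 10 in acutely exposed monolayers, and all genes passing there were 10166 and 3157. Depth limits SOX9 and JAG1 most, the members with the fewest counts.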

Other observations

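Other genes used as stem cell markers moved both ways. Of 24 tested from a list of breast stem and progenitor markers, 13 rose and 9 fell in primed against untreated monolayers, 7 rose and 7 fell in untreated aggregates against untreated monolayers, and 4 rose and 1 fell in acutely exposed monolayers. Of all genes 65.3%, 64.1% and 20.2% passed in these comparisons, and the last 2 shares of the list are near the background. ALDH1A1, a related enzyme and the classical antigen of the stem-like fraction, averaged 9.14 ± 0.997 CPM in primed monolayers and 48.1 ± 2.3 in untreated monolayers (log2 −2.32, SE 0.126, edgeR adjusted p = 5.75e-16), where ALDH1A3 rose. In untreated aggregates ALDH1A1 was at 8.1 ± 1.27 CPM (log2 −2.51, SE 0.126, edgeR adjusted p = 7.03e-17). PROM1, which encodes the surface marker CD133, averaged 38.7 ± 2.39 CPM in untreated aggregates and 120.0 ± 2.26 in untreated monolayers (log2 −1.58, SE 0.0677, edgeR adjusted p = 2.75e-20) and was higher in primed and treated than in untreated aggregates (log2 0.82, SE 0.0683, edgeR adjusted p = 1.85e-11). CD44, the partner of CD24 in sorting, averaged 51.6 ± 3.76 CPM in untreated aggregates and 57.6 ± 4.66 in untreated monolayers and missed the threshold (log2 −0.11, SE 0.0786, edgeR adjusted p = 0.243), and it rose with CD24 in acutely exposed (0.33) and primed monolayers (0.39), each against untreated monolayers. ABCG2, a drug efflux pump, averaged 4.92 ± 0.349 CPM in primed and treated aggregates and 42.6 ± 4.03 in primed monolayers (log2 −3.14, SE 0.116, edgeR adjusted p = 2.49e-22). PROM1 and CD44 were chosen after their values were seen.

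Of 17 other aldehyde dehydrogenases tested, 5 rose and 7 fell in untreated aggregates against untreated monolayers and 6 rose and 5 fell in primed monolayers, shares near the 64.1% and 65.3% of all genes. ALDH1A1 fell in primed and treated against treated aggregates (log2 −1.03, SE 0.133, edgeR adjusted p = 4.73e-06), where ALDH1A3 rose. Of 21 SOX and KLF relatives tested, 12 rose and 4 fell in untreated aggregates against untreated monolayers, 9 rose and 6 fell in primed monolayers, and 5 rose and 2 fell in primed against untreated aggregates, where 64.1%, 65.3% and 21.2% of all genes passed. KLF11 averaged 53.1 ± 3.54 CPM in untreated aggregates and 5.64 ± 0.827 in untreated monolayers (log2 3.29, SE 0.0929, edgeR adjusted p = 3.1e-25), and in primed monolayers it was at 36 ± 2.88 CPM (log2 2.75, SE 0.0962, edgeR adjusted p = 1.94e-22). KLF15 averaged 24.2 ± 1.52 CPM in primed and treated aggregates and 4.59 ± 0.887 in primed monolayers (log2 2.37, SE 0.117, edgeR adjusted p = 9.96e-19). SOX10, a neural crest and melanocyte factor also used as a breast progenitor marker, averaged 0.0209 ± 0.0362 CPM in primed monolayers and 4.87 ± 1.67 in untreated monolayers, and its level was low in each group without the melanocyte markers.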
